A study of Homo sapiens with 2 samples.

Results

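The 35 listed aminoacyl-tRNA synthetase genes were examined for IGF2BP3 binding sites, out of 20033 protein-coding genes with a reference transcript in GENCODE 44 (hg38). They were chosen by name and comprised 19 cytosolic genes, including the enzymes that serve more than 1 compartment or amino acid, and 16 genes of mitochondrial enzymes. For each gene, every peak that shared at least 1 bp with an exon of any of its transcripts was taken from the peak lists. This gave 70 peaks of 21142 in replicate 1 and 74 of 20799 in replicate 2.

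The peaks came from LACE-seq of IGF2BP3, an RNA-binding protein described as a reader of N6-methyladenosine (m6A), in the cell line OE-19, which was established from a cancer of the esophagogastric junction. Cells were crosslinked with UV, RNA bound to IGF2BP3 was immunoprecipitated with an antibody, and the recovered fragments were sequenced. Both samples were replicates of 1 group, for which the labels give no treatment, and no input, IgG or knockdown library was analysed here. Nothing in the labels said whether the replicates came from separate cultures, so the spread between them may be technical.

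Aminoacyl-tRNA synthetases attach each amino acid to its tRNA and so supply the ribosome with its substrates. Cytosolic and mitochondrial translation mostly use separate enzymes, all encoded in the nucleus, and several cytosolic enzymes are held together with the scaffold proteins AIMP1, AIMP2 and EEF1E1 in a multi-tRNA synthetase complex. GARS1 and KARS1 each provide the enzyme of both compartments, and EPRS1 joins the glutamyl and prolyl enzymes in 1 protein.

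The strongest sites seen in both replicates are shown by their coding bases. For each class, the 3 genes were taken whose overlapping peaks had the largest fold enrichment in the weaker replicate. Each sequence is the part of the coding sequence covered by both peaks, on the gene strand, read from hg38. It does not always hold the summit. The summits lay in an intron for AARS1 in both replicates and for KARS1 in replicate 1. For NARS2 they lay in the 5′ UTR in both replicates. GGAC, the core of the m6A motif that the study names, is in capitals. IARS1, AARS1 and KARS1 are cytosolic, and NARS2, RARS2 and EARS2 are mitochondrial.
IARS1: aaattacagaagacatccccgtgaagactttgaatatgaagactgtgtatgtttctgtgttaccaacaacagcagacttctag
AARS1: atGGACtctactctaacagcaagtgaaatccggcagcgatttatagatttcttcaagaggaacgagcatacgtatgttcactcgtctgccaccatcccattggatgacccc
KARS1: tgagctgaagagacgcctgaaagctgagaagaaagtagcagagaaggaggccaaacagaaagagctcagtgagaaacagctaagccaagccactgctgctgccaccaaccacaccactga
NARS2: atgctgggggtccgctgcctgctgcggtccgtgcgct
RARS2: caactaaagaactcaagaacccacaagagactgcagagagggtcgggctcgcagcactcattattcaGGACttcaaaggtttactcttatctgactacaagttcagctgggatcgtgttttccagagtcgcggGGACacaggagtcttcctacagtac
EARS2: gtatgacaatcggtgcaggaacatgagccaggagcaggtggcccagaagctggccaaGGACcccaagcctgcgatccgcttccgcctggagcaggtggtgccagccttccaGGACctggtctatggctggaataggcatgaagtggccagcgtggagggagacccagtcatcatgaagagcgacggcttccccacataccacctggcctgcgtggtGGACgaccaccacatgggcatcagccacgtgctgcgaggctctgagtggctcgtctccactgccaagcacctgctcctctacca
The IARS1 stretch lay in exon 34 of 34 at chr9:92210807-92210889, on the minus strand like the other 5, and ended with the stop codon. The AARS1 stretch (chr16:70282653-70282763, exon 2) began with the start codon, whose last base opened its GGAC. The KARS1 stretch was in exon 2 (chr16:75641604-75641723) and held no GGAC. The NARS2 stretch was the first 37 coding bases (chr11:78574452-78574488, exon 1), also without GGAC. The RARS2 stretch joined exons 15 and 16 (158 bases, between chr6:87518650 and 87518891) and held GGAC at 2 places. The EARS2 stretch was 347 bases of exon 4 (chr16:23535014-23535360), of which the first 300 are printed, and held 3.

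An exonic peak was found in 17 of 19 cytosolic genes in replicate 1 (89.5%, Wilson 95% interval 68.6 to 97.1) and in 19 of 19 in replicate 2 (100%, 83.2 to 100). Among mitochondrial genes the numbers were 6 of 16 (37.5%, 18.5 to 61.4) and 10 of 16 (62.5%, 38.6 to 81.5). Of all protein-coding genes, 37.3% had an exonic peak in replicate 1 and 39.0% in replicate 2. The mitochondrial share was thus near this background in replicate 1 and above it in replicate 2, and the cytosolic share was above it in both. The background includes genes that these cells may not express, and mRNA levels were not measured here, so more binding per transcript and more transcripts cannot be told apart. The intervals cover counting error only, and no test between the classes was made, since genes are not replicates.

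Peaks in both replicates were found in 17 cytosolic genes (89.5%) and 5 mitochondrial genes (31.2%, 14.2 to 55.6), against 31.6% of all protein-coding genes. Peaks that also overlapped each other were found in 14 cytosolic genes (73.7%, 51.2 to 88.2) and in the same 5 mitochondrial genes, against 28.0%. By both counts the mitochondrial genes were near the background. WARS2, the mitochondrial tryptophanyl enzyme, had peaks in replicate 1 alone. HARS1, RARS1, CARS2, HARS2, IARS2, MARS2 and SARS2 had a peak in replicate 2 alone. Genes with peaks in replicate 2 alone made up 20% of the 35, against 7.44% of all protein-coding genes. No exonic peak was listed in either replicate for FARS2, PARS2, TARS2, VARS2 and YARS2, the mitochondrial enzymes for phenylalanine, proline, threonine, valine and tyrosine. Such genes made up 31.2% of the mitochondrial class, fewer than the 55.3% of all protein-coding genes.

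The cytosolic genes carried 58 exonic peaks in each replicate, a mean of 3.05 per gene. The mitochondrial genes carried 12 and 17 (0.906 ± 0.221 per gene, SD, n = 2). Transcript length was similar, with a median reference transcript of 2672 nt for cytosolic and 2620 nt for mitochondrial genes, and a median of 17 and 14.5 exons. Per kb of reference transcript there were 0.981 cytosolic peaks in both replicates and 0.305 ± 0.0743 mitochondrial peaks, beside 0.256 and 0.261 over all protein-coding genes. The cytosolic density was 3.32 ± 0.808 times the mitochondrial density (3.89 in replicate 1, 2.74 in replicate 2). Leaving out IARS1, which alone held 15 and 12 peaks, the cytosolic density was 0.787 and 0.842 per kb, still above the mitochondrial 0.252 and 0.357.

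**Figure D1:**
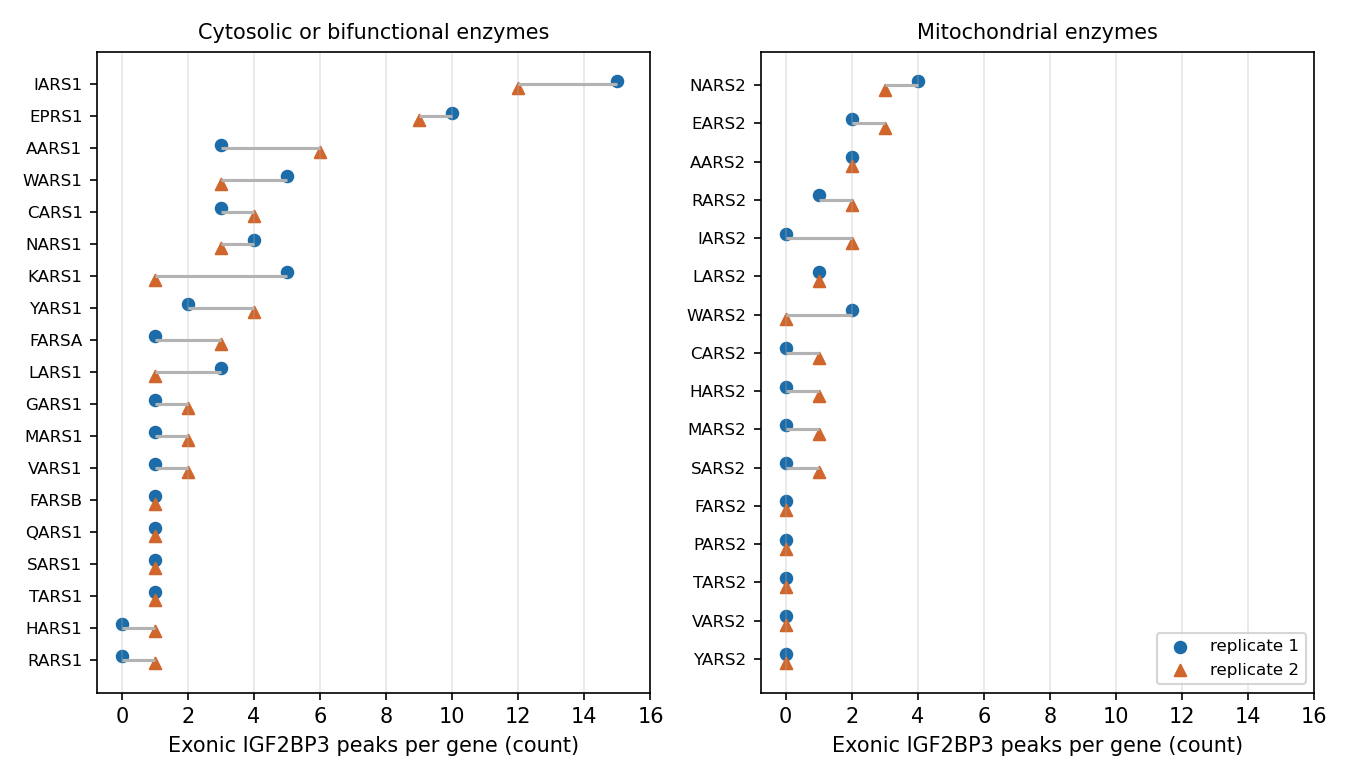
Exonic IGF2BP3 peaks per gene (x axis, count) for the 19 cytosolic (left) and 16 mitochondrial (right) synthetase genes, with circles for replicate 1 and triangles for replicate 2 joined by a line. IARS1 (15 and 12 peaks) and EPRS1 (10 and 9) stand apart from the other genes, and 5 mitochondrial genes sit at 0 in both replicates.

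Paired by amino acid, the cytosolic gene had more peaks than its mitochondrial counterpart in both replicates for 11 of 16 mitochondrial genes (EPRS1 was set against both EARS2 and PARS2, and FARSA and FARSB were summed against FARS2). These counts were not scaled by length. FARSA and FARSB summed to 8572 nt against 1679 nt for FARS2, while AARS1 had 3437 nt against 4798 nt for AARS2. The histidyl and asparaginyl pairs had equal numbers in both replicates. NARS1 and NARS2 each had 4 peaks in replicate 1 and 3 in replicate 2. HARS1 and HARS2, which are neighbors read in opposite directions from a common upstream region, had no peak in replicate 1 and shared a single peak in replicate 2, whose strand is undefined. In the leucyl and seryl pairs the cytosolic gene had more peaks in replicate 1 and an equal number in replicate 2. The arginyl pair ran the other way, with 0 and 1 peaks for RARS1 and 1 and 2 for RARS2.

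IARS1, the cytosolic isoleucyl enzyme (chr9:92210207-92293854), was the most heavily marked member, with 15 peaks in replicate 1 and 12 in replicate 2. Only 25 protein-coding genes reached 15 peaks in replicate 1 and 54 reached 12 in replicate 2, IARS1 included. At 11 sites the peaks of both replicates overlapped. These lay in exons 1, 10, 11, 16, 23, 26, 28, 31, 32, 33 and 34, so they ran through the whole transcript. Peaks covered 36.4% of its reference transcript in replicate 1 and 33.0% in replicate 2, and 29.2% was covered in both.

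The strongest IARS1 peak covered the stop codon and the first part of the 3′ UTR in both replicates (chr9:92210505-92211102 and chr9:92210544-92211150). Its fold enrichment, the read pileup at the summit plus 1 over the local background plus 1, was 19.4 in replicate 1 and 17.4 in replicate 2 (18.4 ± 1.46, SD, n = 2). The pileup was 154 and 69 reads, and the −log10 q-value was 139 and 62.8. It was the largest fold of any member site in either replicate. The other 10 shared sites of IARS1 had folds between 4.56 (exon 23, replicate 2) and 9.56 (exon 33, replicate 1). Exon 26 held the second highest pileup of the gene, 79 and 62 reads, at folds of 7.05 and 7.47. Pileup in IARS1 was lower in replicate 2 at 10 of the 11 shared sites, while the fold was lower at 8.

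**Figure D2:**
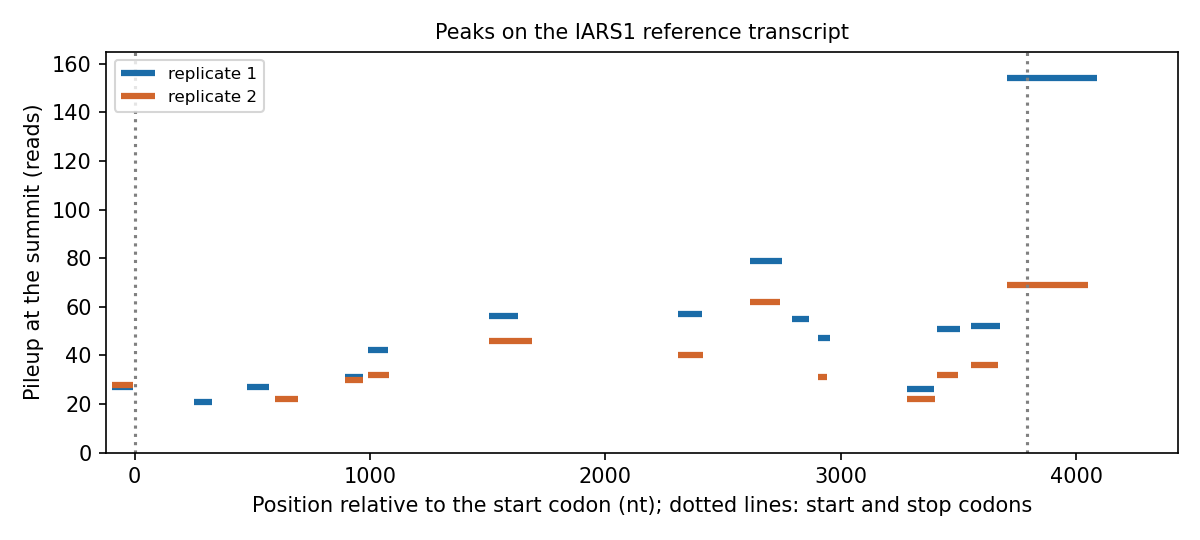
Peaks on the spliced IARS1 reference transcript, with position relative to the start codon (nt) on the x axis and pileup at the summit (reads) on the y axis. Blue bars are replicate 1, orange bars are replicate 2, and dotted lines mark the start and stop codons. The stop codon peak reaches 154 and 69 reads, and the other peaks lie at 79 reads or lower.

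EPRS1, the bifunctional glutamyl-prolyl enzyme and a member of the complex, had 10 and 9 exonic peaks. As many were found in 121 protein-coding genes in replicate 1 and 166 in replicate 2. Its 6 shared sites lay in exons 1, 13, 18, 25, 29 and across exons 31 and 32, where the stop codon was covered. At the stop codon the fold was 8.52 and 8.80, with a pileup of 23 and 21 reads. The shared site over exon 1 had folds of 10.2 and 11.5, and the one over exon 18 had 11.4 and 8.10. The EPRS1 peaks were thus also spread along the transcript, but no site stood above the rest. Most EPRS1 summits of replicate 1 lay outside exons, whereas those of IARS1 lay mostly in exons of any of its transcripts. Several of these IARS1 summits were in non-coding exons. All exons of IARS1 spanned 22418 nt beside a reference transcript of 4483 nt, against 5323 and 4862 nt for EPRS1. The part of annotation in this contrast was not tested. At the shared EPRS1 sites over exons 13 and 25 the summits were intronic in both replicates. There 69.9% to 86.1% of each peak lay outside exons.

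The other enzymes of the complex had fewer peaks. KARS1, the lysyl enzyme of both compartments, had 5 peaks in replicate 1 and 1 in replicate 2. Its shared site over exon 2 had folds of 10.4 and 13.4 and pileups of 23 and 32 reads. A KARS1 peak over the stop codon (chr16:75627768-75628204) reached a fold of 11.5 and 54 reads in replicate 1, and replicate 2 listed no peak there. QARS1, the glutaminyl enzyme, had 1 peak in each replicate, and the peaks overlapped (chr3:49099783-49100338 and chr3:49099781-49100487). They covered exons 13 to 15 in replicate 1 and exons 12 to 15 in replicate 2. The QARS1 folds of 7.76 and 7.56 and the pileup of 67 reads in both made this one of the most even sites of the set. It also overlapped MIR6890, annotated on the same strand. LARS1 had 3 and 1 peaks, with a shared site over exons 26 and 27 (fold 5.19 and 7.51), and RARS1 had 1 peak over its start codon in replicate 2 (fold 6.80, 9 reads).

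MARS1, the methionyl enzyme, is a case where the gene assignment is uncertain. Its shared site had folds of 5.78 and 14.1, the widest gap between replicates in the set, but covered no base of the MARS1 reference transcript. The site lay over an exon of DDIT3, which is transcribed from the opposite strand. As the deposited peaks carry no strand, reads from MARS1 and DDIT3 cannot be told apart there. The only peak within the MARS1 reference transcript was in exons 2 and 3 in replicate 2 (fold 5.77, 8 reads).

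Over the 7 enzymes of the complex there were 35 and 27 exonic peaks, or 1.49 and 1.15 per kb. The 12 cytosolic genes outside it had 23 and 31 peaks, or 0.645 and 0.869 per kb. IARS1 and EPRS1 held 25 of the 35 and 21 of the 27 complex peaks, so the figure for the complex rests on that pair of genes.

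Among the cytosolic enzymes outside the complex, AARS1, the alanyl enzyme, had 3 and 6 peaks. Shared peaks lay at both ends of its coding sequence. The AARS1 peak over exon 2 and the start codon had folds of 12.7 and 13.7 (13.2 ± 0.734, SD, n = 2) with 25 and 30 reads, and the peak over the stop codon had 11.9 and 8.54 with 81 and 63 reads. WARS1, the tryptophanyl enzyme, had 5 and 3 peaks toward the 3′ end, which covered 49.5% and 34.1% of its reference transcript. Its 3 shared sites lay over exon 9 (fold 8.73 and 8.97), the stop codon (5.21 and 7.39) and the 3′ UTR (6.20 and 5.67). NARS1, the asparaginyl enzyme, had 4 and 3 peaks with shared sites in exon 1 (7.17 and 7.29) and the 3′ UTR (9.02 and 5.83). A peak in the NARS1 3′ UTR was 669 bp wide in replicate 1 and 294 bp in replicate 2.

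GARS1, the glycyl enzyme of both compartments, had a shared site in exon 16 with folds of 11.5 and 8.12. A GARS1 peak over the start codon had a fold of 15.9 and 36 reads in replicate 2, and replicate 1 listed none. This window also overlapped an exon of GARS1-DT on the opposite strand. YARS1, the tyrosyl enzyme, showed why pileup and fold are given together. Its shared stop codon peak had the highest pileup of any member after the IARS1 stop codon peak in replicate 1, and the highest of all in replicate 2, with 106 and 88 reads, at folds of only 5.78 and 3.77. Shared sites were also found in CARS1 (2), FARSA (1) and VARS1 (1). FARSB, SARS1 and TARS1 had 1 peak per replicate at different places, and the SARS1 peak of replicate 1 touched no exon of the reference transcript.

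**Figure D3:**
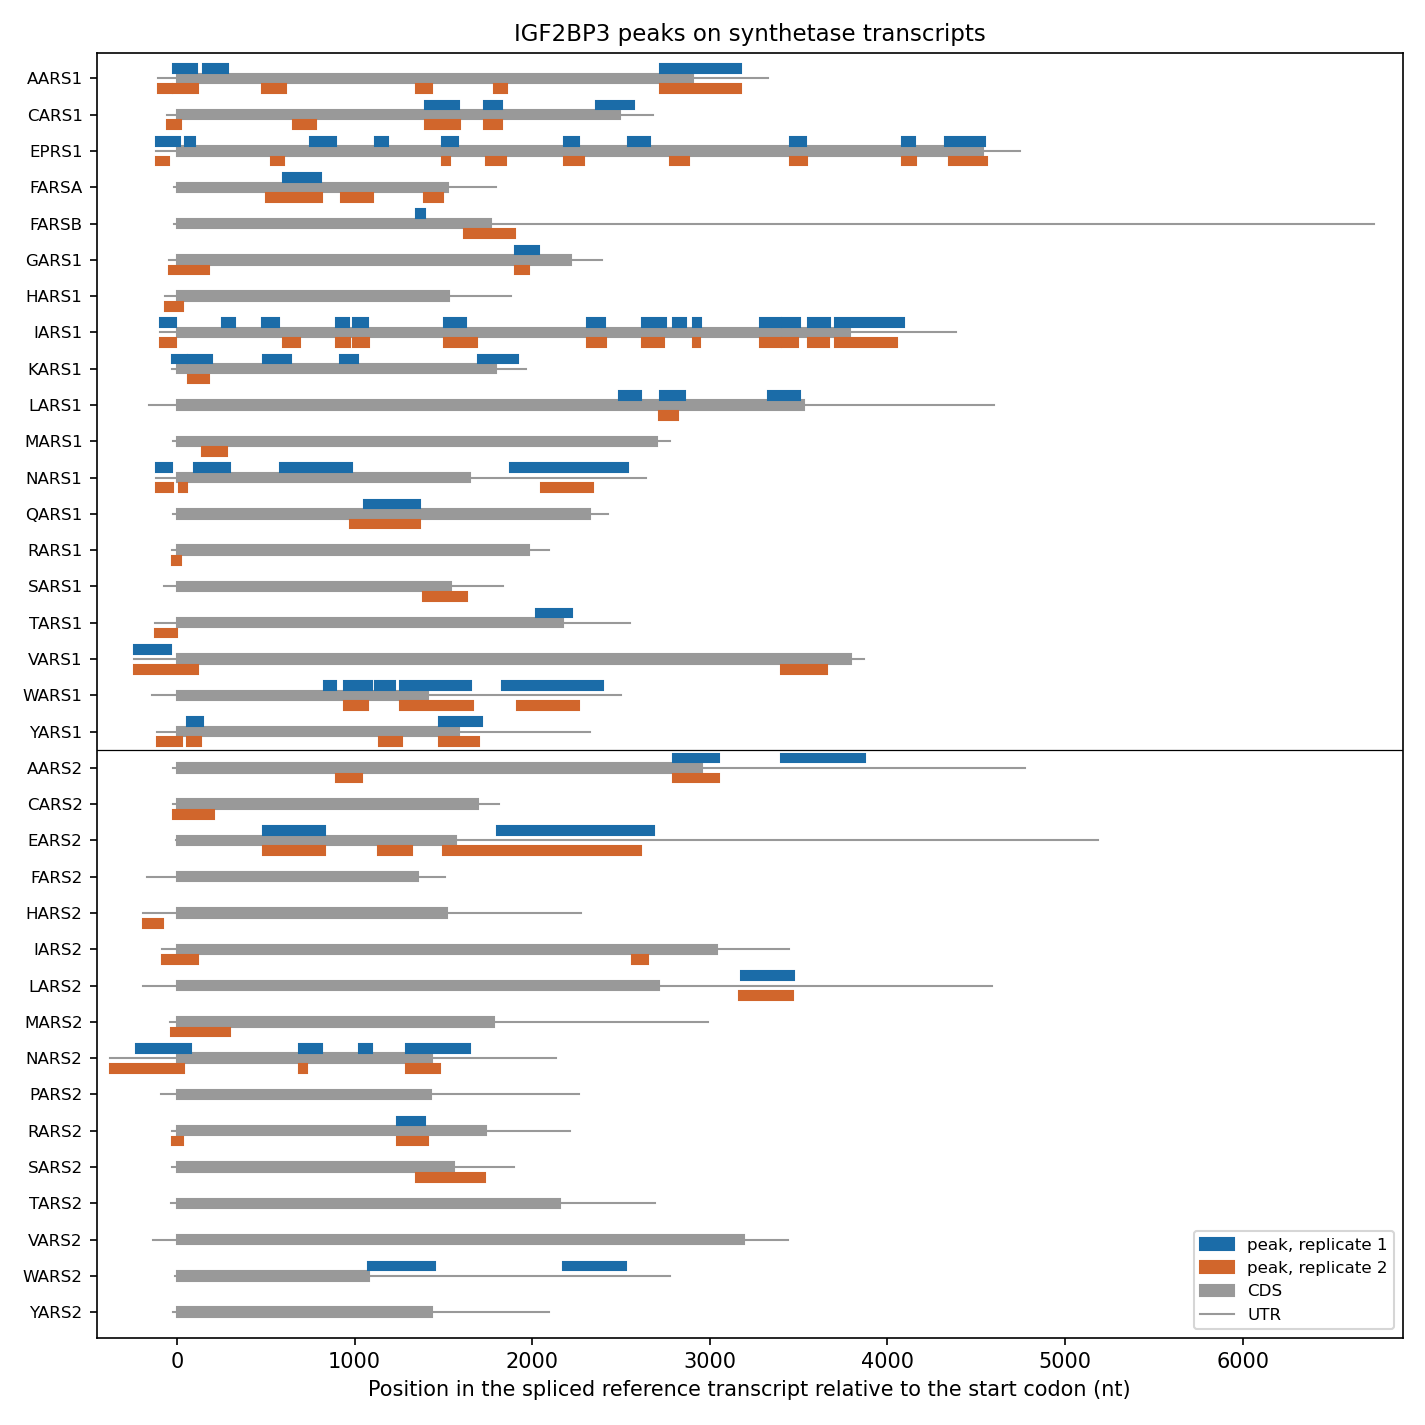
Peaks on the spliced reference transcripts of the 35 genes, aligned at the start codon (x axis, nt), with cytosolic genes above the black line; thick gray bars are CDS, thin lines UTRs, and blue and orange bars are peaks of replicates 1 and 2. Peaks run along the whole of IARS1 and EPRS1, 5 mitochondrial genes are bare, and orange bars without a blue one are frequent at start codons.

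Of the mitochondrial genes, 5 had shared sites. NARS2, the asparaginyl enzyme, had the most, with 4 and 3 peaks and 3 shared sites. They lay over the start codon (fold 8.34 and 11.3, 11 and 17 reads), over exon 7 (7.34 and 6.15, 10 and 7 reads) and over the stop codon (9.02 and 6.80, 17 and 10 reads). RARS2, the arginyl enzyme, had a shared site over exons 15 and 16 with folds of 7.54 and 10.5 and 22 and 25 reads. In replicate 2 a RARS2 peak over the start codon reached 12.7, the highest fold of the mitochondrial class, at 21 reads, and it also overlapped an exon of ORC3 on the opposite strand.

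EARS2, the glutamyl enzyme, had a shared coding site in exon 4 (6.31 and 6.80) with only 9 and 12 reads, and a wide one in the 3′ UTR (7.88 and 6.14) with 45 and 23 reads. The 3′ UTR peak was 888 bp wide in replicate 1 and 1112 bp in replicate 2, where it reached the stop codon. AARS2, the alanyl enzyme, had a shared stop codon peak with folds of 4.51 and 6.71 and 34 and 56 reads. LARS2, the leucyl enzyme, had 1 peak per replicate, at the same place in the 3′ UTR (6.81 and 6.14, 13 and 12 reads). Except for the wide EARS2 peak and the AARS2 stop codon peak, no shared mitochondrial site exceeded 25 reads.

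The strength of single peaks differed less between the classes than their number. The median fold was 7.55 and 7.49 for cytosolic peaks, 6.56 and 6.80 for mitochondrial peaks, and 6.85 and 7.13 over the exonic peaks of all protein-coding genes. The median pileup was 25.5 and 23.5 reads in the cytosolic class, 18.5 and 12 in the mitochondrial class, and 24 and 23 over all. A peak of at least 20 reads was found in 65.8% ± 3.72 (SD, n = 2) of cytosolic genes and in 25% of mitochondrial genes in each replicate, beside 24.8% and 24.7% of all protein-coding genes. At this depth the mitochondrial share was at the background. The share of peaks that overlapped a peak of the other replicate was 60.3% in both replicates for cytosolic genes, 66.7% and 47.1% for mitochondrial genes, and 62.2% and 61.4% over all. The overlap between replicates was thus near the background in the cytosolic class, and straddled it in the mitochondrial class. Leaving out IARS1, the cytosolic overlap was 55.8% and 52.2%, below the background in both replicates.

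**Figure D4:**
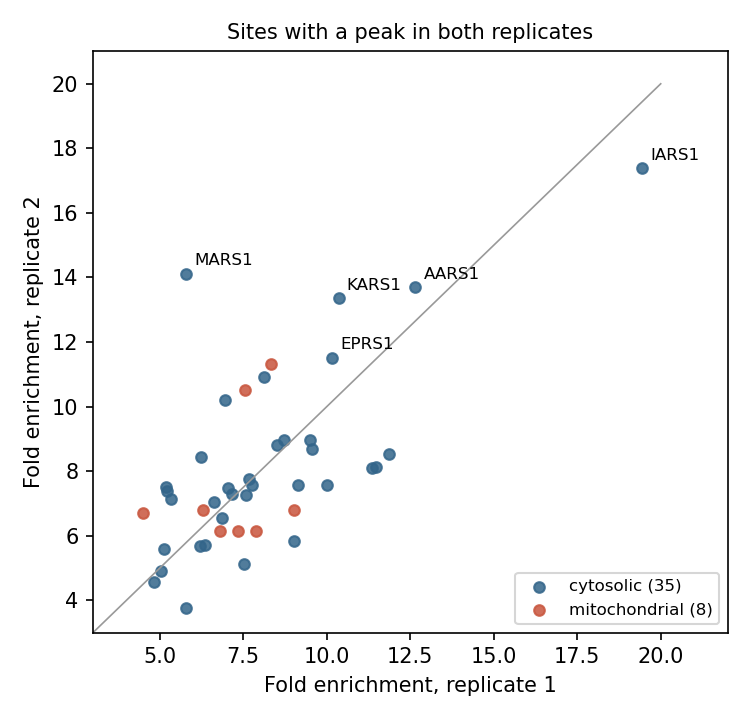
Fold enrichment in replicate 1 (x axis) and replicate 2 (y axis) at the 43 sites where both replicates had overlapping peaks, 35 cytosolic (blue) and 8 mitochondrial (red), with the line of equal values. The IARS1 stop codon site lies at 19.4 and 17.4, and the MARS1 site, which overlaps DDIT3, is farthest from the line.

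The position of the peaks was next compared between the classes. The summit lay in CDS for 36.2% and 39.7% of cytosolic peaks and for 41.7% and 41.2% of mitochondrial peaks, beside 34.2% and 34.0% over all protein-coding genes. In the 3′ UTR the shares were 6.90% in both replicates for cytosolic and 41.7% and 17.6% for mitochondrial peaks, beside 26.3% and 20.8%. The cytosolic share was below the background in both replicates, with 4 such peaks in each, and the mitochondrial share rested on 5 and 3 peaks. Region lengths differed as well. The 3′ UTR and CDS held 12273 and 45279 nt in cytosolic and 15446 and 30657 nt in mitochondrial reference transcripts. Over all protein-coding genes they held 34563605 and 34351525 nt, and the part of length in these shares was not tested. Intronic summits, from peaks whose flank reached an exon, made up 32.8% and 29.3% of cytosolic peaks, 8.33% and 11.8% of mitochondrial peaks and 24.9% and 22.4% over all. A stop codon was covered by 13.8% and 12.1% of cytosolic peaks and by 14.8% and 13.3% over all. The mitochondrial share was 25% and 23.5%, above the background in both replicates, but rested on 3 and 4 peaks.

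Counted by bases instead of by peaks, the classes differed in CDS. Peaks covered 13.8% and 13.4% of the cytosolic CDS (13.6 ± 0.339, SD, n = 2) and 3.59% and 7.49% of the mitochondrial CDS (5.54 ± 2.75), and the replicate values did not overlap. Over all protein-coding genes the CDS coverage was 7.43% and 7.80%. In 3′ UTRs the classes overlapped, with 19.9% and 14.6% in cytosolic and 17.4% and 10.7% in mitochondrial genes. Both were above the 7.52% and 5.94% over all protein-coding genes. Leaving out IARS1, cytosolic CDS coverage was 12.1% and 11.9%. The background above includes genes without any peak. Over the protein-coding genes with an exonic peak in either replicate, coverage was 15.1% and 15.8% of the CDS, above the cytosolic values, and 14.3% and 11.3% of the 3′ UTR, above the mitochondrial value in replicate 2. The mitochondrial values include the 5 genes without a peak.

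**Figure D5:**
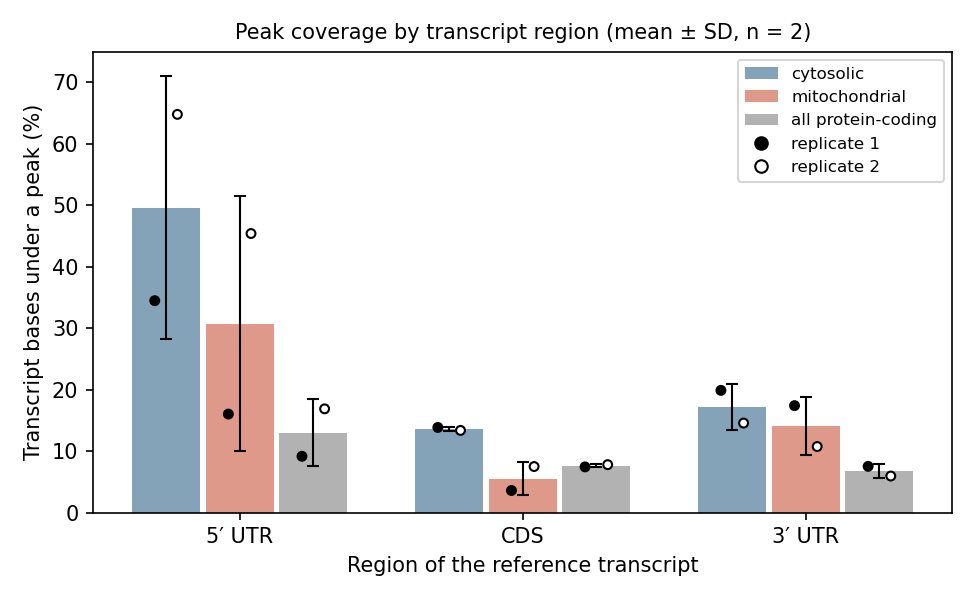
Share of reference transcript bases under a peak (y axis, %) by region, for cytosolic, mitochondrial and all protein-coding genes; bars are means of 2 replicates, error bars are SD, and filled and open points are replicates 1 and 2. Cytosolic CDS lies at 13.8% and 13.4% and mitochondrial CDS at 3.59% and 7.49%, while 5′ UTR values differ widely between replicates.

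The replicates differed most at the 5′ ends. Peaks of the 35 genes over a start codon numbered 4 in replicate 1 and 12 in replicate 2, and peaks touching a first exon 6 and 17. Over all protein-coding genes start codon peaks numbered 1801 and 2769, a ratio of 1.54 against 3 for the synthetase genes. Of 14 sites where a peak of either replicate covered the start codon, 9 were found in replicate 2 alone, 1 in replicate 1 alone and 4 in both. The shared ones were in AARS1, EPRS1, VARS1 and NARS2. Of these, only 2 genes, AARS1 and NARS2, had the start codon itself covered in both replicates. Stop codon peaks numbered 11 in both replicates, and 8 of 15 such sites were shared, with the stop codon itself covered in both replicates in 7 genes. Of start codon peaks, 75% and 25% overlapped a peak of the other replicate, against 80.0% and 57.2% over all protein-coding genes. For stop codon peaks the shares were 63.6% and 72.7%, against 76.7% and 81.5%. Both kinds were thus below the background in both replicates, on few peaks. Base coverage of the 5′ UTR was 34.5% and 64.8% in cytosolic, 16.0% and 45.4% in mitochondrial and 9.16% and 16.9% in all protein-coding genes. Over the protein-coding genes with an exonic peak it was 19.8% and 36.6%. The 5′ UTRs summed to 1584 nt in 19 cytosolic, 1454 nt in 16 mitochondrial and 3950666 nt in all 20033 genes. Peaks were at least 293 bp wide, so 1 peak can cover a whole short 5′ UTR, and the part of length was not tested. The median GC content within 50 nt of the summits was 44.6% in replicate 1 and 49.5% in replicate 2 for the 35 genes, and 50.5% and 57.4% over all, and its part in the difference was not tested. Of the 7 genes with peaks in replicate 2 alone, HARS1, RARS1, CARS2, HARS2 and MARS2 had their single peak at the first exon, IARS2 had 1 there and 1 in exon 21 (fold 6.30), and SARS2 had its peak at the stop codon.

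GGAC was present on the gene strand within 50 nt of the summit for 16 of 58 cytosolic peaks in each replicate (27.6%), and for 4 of 12 and 7 of 17 mitochondrial peaks (33.3% and 41.2%). Over the exonic peaks of all protein-coding genes it was present in 29.5% and 32.5%. TGGAC, which contains GGAC, was found in 10.3% and 15.5% of cytosolic windows and in 10.1% and 10.0% over all. It was found in 0 and 1 mitochondrial windows (0% and 5.88%). In these windows the cytosolic shares of GGAC were slightly below those of all peaks in both replicates and the mitochondrial shares above them. Within 100 nt of the summit, GGAC was present for 41.4% and 51.7% of cytosolic peaks, for 9 of 12 and 12 of 17 mitochondrial peaks (75% and 70.6%), and for 48.9% and 54.1% over all. In the whole peak it was present in 63.8% and 74.1% of cytosolic, 100% and 88.2% of mitochondrial and 71.3% and 76.2% of all exonic peaks. The mitochondrial peaks were few and, with a median width of 358 and 360 bp against 328 and 306 bp, wider than the cytosolic ones, and the part of width in these shares was not tested. The coding sequences printed above held GGAC in AARS1, RARS2 and EARS2 and not in IARS1, KARS1 and NARS2, but they are only parts of the sites. Within 50 nt of the summit, GGAC was present for NARS2 in both replicates. It was present there for AARS1 and KARS1 in replicate 1 only, for EARS2 in replicate 2 only, and for IARS1 and RARS2 in neither. Every one of these sites held GGAC somewhere in the whole peak in both replicates.

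Genes that work with the synthetases were taken as named lists. Of 11 cytosolic partner genes, 7 had an exonic peak in replicate 1 and 4 in replicate 2, and 4 had overlapping peaks in both. Those 4 were AIMP1, a scaffold protein of the complex, and the elongation factor genes EEF1A1, EEF1D and EEF1G. AIMP1 had 2 and 1 peaks of at most 9 and 11 reads, whereas AIMP2 and EEF1E1 had 1 peak each in replicate 1 and none in replicate 2. EEF1A1, which delivers charged tRNA to the ribosome, had 3 and 2 peaks with pileups up to 72 and 67 reads. Of 6 mitochondrial partner genes, 3 had overlapping peaks in both replicates, namely GATC, MTFMT and TUFM. GATC is a subunit of the enzyme that makes mitochondrial glutaminyl-tRNA, MTFMT formylates the initiator tRNA and TUFM is the elongation factor. The other subunits GATB and QRSL1, and TSFM, had none. Beside the same backgrounds of 37.3% and 39.0%, the cytosolic partner shares were 63.6% and 36.4% and the mitochondrial ones 50% in each.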

How the data were processed

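LACE-seq peak lists of IGF2BP3 from 2 OE-19 samples, replicates 1 and 2 of a single group, were analysed, and no sample was left out. Peaks were called per replicate by the authors. The labels name fastp, HISAT2, MACS2 and hg38, whereas the study's methods name Bowtie and Piranha for LACE-seq, and the files have the narrowPeak layout of MACS2. Starts, ends and summits were deposited in bp, without strand, and are given here as 1-based hg38 coordinates. Fold enrichment, a ratio of summit pileup plus 1 to local background plus 1, was used as deposited, so that it is lowered most where the background is low. Both p-values and q-values were deposited as −log10, with a lowest −log10 q of 2.18 and 2.15. The deposited score column repeats the q-value and was not used.

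Read numbers per library are unknown. The pileup at each summit was recovered as the whole number that gives both the deposited fold and p-value under a Poisson distribution (tolerance 0.001 in −log10 p). It was found for all 21142 and 20799 peaks, with a median of 22 reads in both, and sets the precision of each peak.

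Peaks were assigned to every GENCODE 44 gene whose exons shared at least 1 bp with them. A peak over exons of several genes was counted for each, so that replicate 2 had 75 pairs of gene and peak from 74 peaks. Reference transcripts were MANE Select for 35 of 35 genes. Each summit was given the first class that any transcript of the gene allowed, among CDS, 3′ UTR, 5′ UTR, non-coding exon and intron. Motifs were searched on the gene strand of the genome only, within 50 nt of the summit. Intervals are Wilson 95%. With 1 group no test was run, and SDs are over the replicates. Shares of all protein-coding genes stand as the background.

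Members and lists were chosen with earlier results of these data known. Described in full were the 5 cytosolic genes with most peaks (NARS1 and CARS1 tied at 7, and NARS1 was taken for its stronger shared site), the 3 strongest shared sites per class, mitochondrial genes with peaks in both replicates, EPRS1, GARS1, KARS1 and QARS1, genes without a peak, and AIMP1, AIMP2 and EEF1E1. YARS1, MARS1 and other genes named beyond these were chosen after their values were seen. Alternatives changed the exons, the summit rule, the q-value, shared exons, the overlap, the length and the window. Leaving out IARS1, a pileup of at least 20 reads and the ratio of the densities were added after seeing the data. Overlap counting and pileup recovery were tested on simulated data. Python 3.11.15, pandas 2.3.3, scipy 1.17.1 and pysam 0.24.0 were used.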

Additional observations from a re-analysis of the deposited data

How the results depend on the processing

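Of 75 alternative values that used both replicates, for 15 results, 39 stayed within the spread between replicates, 36 moved and 0 reversed. The 30 values from 1 replicate alone lie within the SD of a pair by construction and say nothing about stability. Where the cytosolic replicates gave the same value the spread was 0, so that any change counted as moved. The cytosolic density stayed above the mitochondrial one under each alternative run for both, and their ratio fell to 2.50 when the summit had to lie in an exon. The cause of these changes was not tested, except that stricter rules leave fewer peaks.

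Cytosolic peaks per gene were 2.95 with reference exons alone, 2.03 with the summit in an exon, 3 at a −log10 q of at least 5, 2.79 without peaks on exons of another gene and 2.47 without IARS1. The same settings gave 0.947, 0.651, 0.964, 0.896 and 0.814 cytosolic peaks per kb, and 60.7%, 65.0%, 59.6%, 61.4% and 54.0% of cytosolic peaks overlapping the other replicate. The first 4 of them gave GGAC in 28.6%, 24.6%, 28.1% and 26.4% of cytosolic windows. With the length of all exons the density was 0.356 per kb for cytosolic and 0.136 for mitochondrial genes. The cytosolic overlap was 58.6% when 50% of the peak had to be shared and 37.9% for summits within 50 bp, where the mitochondrial overlap was 42.6%. GGAC was found in 46.6% of cytosolic windows that reached 100 nt to each side and in 69.0% of whole cytosolic peaks. The cytosolic median fold was 7.57 with reference exons alone.

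Cytosolic genes with an exonic peak made up 78.9% with the summit in an exon, 84.2% without peaks on exons of another gene and 65.8% at a pileup of at least 20 reads, where the mitochondrial share was 25%. With the summit in an exon, the CDS share was 57.1% for cytosolic and 47.7% for mitochondrial peaks and the cytosolic stop codon share 19.6%. The mitochondrial CDS share was 43.9% without peaks on exons of another gene.

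With 1 replicate alone, mitochondrial genes with a peak ranged from 37.5% to 62.5%, peaks per gene from 0.75 to 1.06 and the density ratio from 2.74 to 3.89. Low pileups limit the mitochondrial sites most, and a peak missing from a list does not show that IGF2BP3 was absent.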

Other observations

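The local background behind the peaks differed between the classes and replicates. Its median was 2.62 and 2.19 reads at cytosolic peaks, 1.76 and 0.735 at mitochondrial peaks, and 2.29 and 1.97 over the exonic peaks of all protein-coding genes. AAAAA was found in 17.2% and 15.5% of cytosolic windows of 50 nt to each side of the summit, beside 11.3% and 8.02% over all. It was found in 1 and 2 mitochondrial windows (8.33% and 11.8%). ACACA was found in 12.1% and 10.3% of cytosolic windows and in 3 and 4 mitochondrial windows (25% and 23.5%), beside 10.1% and 8.05%. The median share of a peak outside exons was 46.9% and 29.8% for cytosolic and 0% and 17.1% for mitochondrial peaks.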
